A study of Rattus norvegicus with 6 samples.

Results

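The small nucleolar RNAs (snoRNAs) U3, U8, U13 and U14 were examined in a rat β-cell model of Prader-Willi syndrome (PWS). Rows of the deposited table were taken by name: U3 or Snord3 with its lettered forms, U8 or Snord118, Snord13 for U13, and Snord14 with its lettered forms. This gave 16 of 32883 rows, of which 10 were named U3, 2 were named U8 and 4 were named SNORD14. No row carried the name of U13. Reads were found in 15 of the 16 rows, and 14 averaged 5 or more normalized reads over the 6 libraries and were tested. Together the 16 rows held between 0.120% and 0.189% of all reads of a library.

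Most box C/D snoRNAs direct the methylation of ribosomal RNA, whereas U3, U8 and U14 are known for their roles in the processing of its precursor (pre-rRNA). U13 was grouped with them here. U3 pairs with the external spacer and with the small subunit part of the precursor, and is needed for the early cleavages that release small subunit rRNA. U8 is needed in vertebrates for the maturation of the large subunit rRNAs, U13 pairs with small subunit rRNA, and U14 both takes part in small subunit processing and guides a methylation. In vertebrates U3, U8 and U13 are transcribed from promoters of their own, while U14 is cut from introns of protein-coding genes, Hspa8 among them.

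The data came from 6 clonal lines of INS-1(832/13) cells, a rat insulinoma line that secretes insulin and here carried mCherry fused to an insulin transgene. The Control lines 5-9, 2 and 16 carried a deletion of the imprinted PWS domain on the maternal copy, which is silent, and the PWS lines 3, 19-1 and 19-4 carried a second deletion on the active paternal copy, so that the maternal deletion was shared by all 6 lines. Line 5-9 is the parent of the other 5 lines: lines 2 and 16 were cloned after transfection with a control vector, and the PWS lines after a second round of editing. Lines 19-1 and 19-4 were subcloned from the same PWS line, and line 3 carried a larger deletion. Each line was 1 clone, grown in 7.5 mM glucose and sequenced as 1 small RNA library, so that the n of 3 per group counts clones and a p-value measures only the spread between them.

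Values are normalized reads, that is, reads per row divided by a size factor for the library. The whole reads behind them were recovered, and libraries held between 7373691 reads (PWS line 19-4) and 16480475 reads (PWS line 3). The β-cell miRNA Mir375 was abundant in every library, between 558022 and 833397 normalized reads, as were Mir7a1 and Mir7a2, whose lowest values were 620377 and 623497. The β-cell mRNAs were far lower: Ins1 lay between 88.3 and 284.7, Chga between 29.4 and 46.3, Iapp between 11.8 and 56.3, Pdx1 between 6.30 and 15.8, Nkx6-1 between 1.31 and 10.8 and Ins2 between 0 and 30.1. Of the markers of other cells, Mir145 of stromal cells was at 0 in all 6 libraries, Mir143 lay between 13.1 and 48.8, the 3 Mir124 rows of neurons between 46.1 and 264.9, and Mir142 of blood cells between 43.1 and 75.1. Mir122, Mir451, Mir133a1, Mir133a2 and Mir1 had no row under those names. Apart from Ins1, no β-cell mRNA exceeded the highest value of Mir142 or Mir124. In small RNA libraries mRNAs are read only from short fragments, so these values do not compare the levels of mRNAs with those of miRNAs.

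In none of the 3 families with reads was a difference between PWS and control lines detected beyond the spread among clones. U3 made up most of the signal, and its mean was somewhat higher in the PWS lines with overlapping groups. The U8 mean was also higher and the U14 mean lower, each with a spread among clones of one genotype that exceeded the difference between genotypes. As the libraries are from bulk cells, fewer cells with a given RNA and less of it per cell cannot be told apart.

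U3 was by far the most abundant of the families by reads. As the libraries hold short fragments and small RNAs, reads of different families need not reflect their relative amounts in the cell. The U3 total was 13079 normalized reads in Control line 5-9, 14542 in line 2 and 14918 in line 16. It was 15345 in PWS line 3, 14823 in line 19-1 and 17608 in line 19-4. Line 19-4 thus stood highest and line 5-9 lowest, while PWS line 19-1 lay below Control line 16, and the highest value was 1.35 times the lowest. The control mean was 14179.6 ± 972 and the PWS mean 15925 ± 1480.4 (SD, n = 3 each). The log2 difference, PWS minus control, was 0.17 with a standard error of 0.20 and a 95% interval from −0.27 to 0.60 (limma-trend, adjusted p = 0.909). It was 0.11 without Control line 5-9 and 0.091 without PWS line 19-4.

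U8 was read from a single row, ENSRNOG00000056054. Its normalized reads were 512 in Control line 5-9, 380.4 in line 2 and 660.5 in line 16, against 725 in PWS line 3, 529 in line 19-1 and 512 in line 19-4. The groups overlapped, and the highest line (PWS line 3) and the lowest (Control line 2) differed by 1.90 times. The control mean was 518 ± 140.1 and the PWS mean 589 ± 118 (SD, n = 3 each). The log2 difference was 0.20 with a standard error of 0.28 and a 95% interval from −0.39 to 0.79 (limma-trend, adjusted p = 0.919). Single libraries decided this value: it was −0.0012 without Control line 2, 0.044 without PWS line 3 and 0.40 without Control line 16. The other U8 row, ENSRNOG00000056260, had 0 reads in each of the 6 libraries, which allows up to 3 reads per library.

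U14 had the widest range among the lines of the 3 families. The U14 total was 395 normalized reads in Control line 5-9, 306 in line 2 and 457 in line 16, against 499 in PWS line 3, 300.4 in line 19-1 and 219 in line 19-4. The PWS group held both the highest and the lowest of the 6 values, which differed by 2.28 times. The control mean was 386 ± 75.8 and the PWS mean 339 ± 144.0 (SD, n = 3 each). The log2 difference was −0.25 with a standard error of 0.31 and a 95% interval from −0.91 to 0.42 (limma-trend, adjusted p = 0.915). It was 0.024 without PWS line 19-4, −0.57 without PWS line 3, −0.41 without Control line 2 and −0.12 without Control line 16, and with the subclones 19-1 and 19-4 averaged into 1 sample it was −0.081. On the recovered reads it was −0.16 with edgeR and −0.17 with DESeq2.

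**Figure D1:**
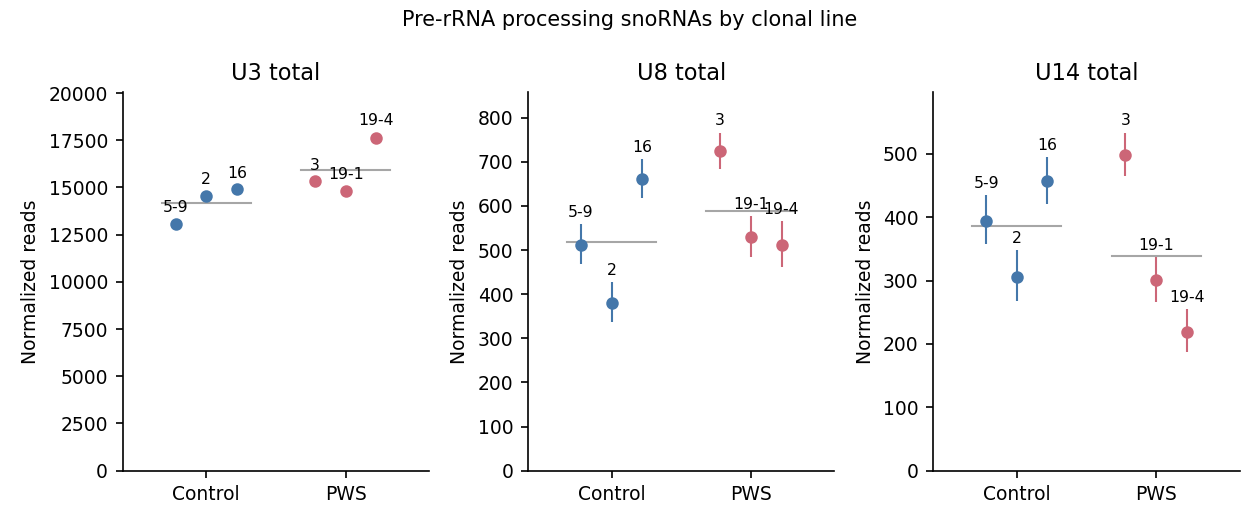
Normalized reads of the U3, U8 and U14 totals in each clonal line, with Control lines in blue, PWS lines in red, exact 95% Poisson intervals (counting error only) as vertical bars and group means as grey lines. The groups overlap in all 3 panels, and for U14 PWS line 3 lies at 499 and PWS line 19-4 at 219.

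U13, for which no row was found, has no value here. Neighbouring lines in the order of a family's levels often did not differ beyond counting error. For U8, the exact 95% Poisson interval of line 19-1 (484 to 578) covered the values of lines 5-9 and 19-4. For U14, that of Control line 2 (268 to 348) covered the value of PWS line 19-1. For U3, that of PWS line 19-1 (14579 to 15069) covered the value of Control line 16, whereas that of line 19-4 (17310 to 17909) lay above all other lines. Line 19-4 also had the highest sum of the other box C/D snoRNAs, 220669 normalized reads against 158377 to 184758 in the other lines. Of all snoRNA reads, U3 took 6.79% in line 19-4, against 7.17% in PWS line 3, 7.61% in PWS line 19-1 and 5.93% to 6.42% in controls.

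The order of the lines in U14 nearly followed the depth of the libraries. From deepest to shallowest these were PWS line 3, Control line 16, Control line 5-9, PWS line 19-1, Control line 2 and PWS line 19-4, and the U14 total had the same order except that line 2 lay above line 19-1. U8 had its highest values in the 2 deepest libraries and its lowest in one of the 2 shallowest. U3 did not follow this order, since the shallowest library, PWS line 19-4, held the most. With log2 depth as a covariate, a fit added after the values were seen, the log2 differences were 0.17 for U3, 0.21 for U8 and −0.24 for U14, and none passed the threshold. The part of depth in the spread of U8 and U14 was not tested beyond this fit.

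**Figure D2:**
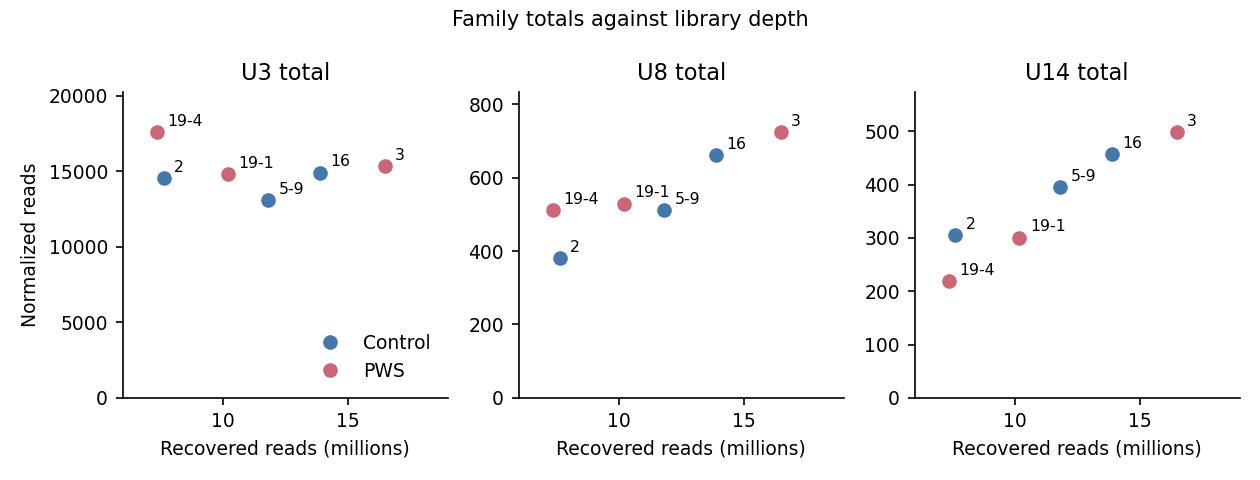
Normalized reads of the 3 family totals against the recovered reads of each library, with each point 1 clonal line, blue for Control and red for PWS. U14 and U8 are highest in PWS line 3, the deepest library, while U3 is highest in PWS line 19-4, the shallowest.

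The families were also set against each other within a library, where the size factor drops out. U14 came to 3.02, 2.10 and 3.06 reads per 100 U3 reads in Control lines 5-9, 2 and 16, and to 3.25, 2.03 and 1.24 in PWS lines 3, 19-1 and 19-4. The PWS lines again spanned a wider range than the controls, with means of 2.17 ± 1.01 against 2.73 ± 0.542 (SD, n = 3 each, exact two-sided permutation p = 0.6). U8 came to 3.65 ± 0.934 reads per 100 U3 reads in controls and 3.73 ± 0.919 in PWS lines (n = 3 each, exact two-sided permutation p = 1).

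The ratio of U8 to U14 was the one measure of this kind in which the groups did not overlap. It was 129.7, 124 and 144.6 U8 reads per 100 U14 reads in Control lines 5-9, 2 and 16, against 145.2, 176 and 234 in PWS lines 3, 19-1 and 19-4. The gap between Control line 16 (144.6) and PWS line 3 (145.2) was narrow, and the exact two-sided permutation p of 0.1 is the smallest that 3 lines against 3 can give. Adjusted over the 3 ratios, which were chosen after values were seen, the p was 0.3 for U8 to U14, 0.9 for U14 to U3 and 1 for U8 to U3 by the Benjamini-Hochberg method (exact permutation tests). Divided by the RefSeq lengths of rat Snord118 (136 bases) and Snord14a (86 bases, assembly GRCr8), normalized reads per base were 0.786 to 0.914 times as high for U8 as for U14 in controls and 0.918 to 1.48 times in PWS lines. Neither the identifiers nor the symbols of the 16 rows matched the RefSeq table (0 matches), so these lengths are those of the RefSeq genes of the same families.

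How U3 reads were counted decided most of the U3 total. The authors counted reads in one table so that a read overlapping several genes was added to each, and in the other so that it was left out. Of these tables, the second listed 6 of the 10 U3 rows at 0, and these 6 held 89.6% of the U3 reads of the first. Each of the 6 had, to within 1 read over all libraries, the same reads as a row of another name. Row ENSRNOG00000061360 had the same reads as Rnu3a (ENSRNOG00000059255), itself a name for U3. Rows ENSRNOG00000060466, ENSRNOG00000053959 and ENSRNOG00000055743 were mirrored by the clone-named rows AABR07030184.4, AABR07030184.3 and AABR07030184.1. Row ENSRNOG00000052744 was mirrored by AABR07010660.1 and row ENSRNOG00000053796 by AC119116.1. The names of these rows do not say what is encoded there.

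**Figure D3:**
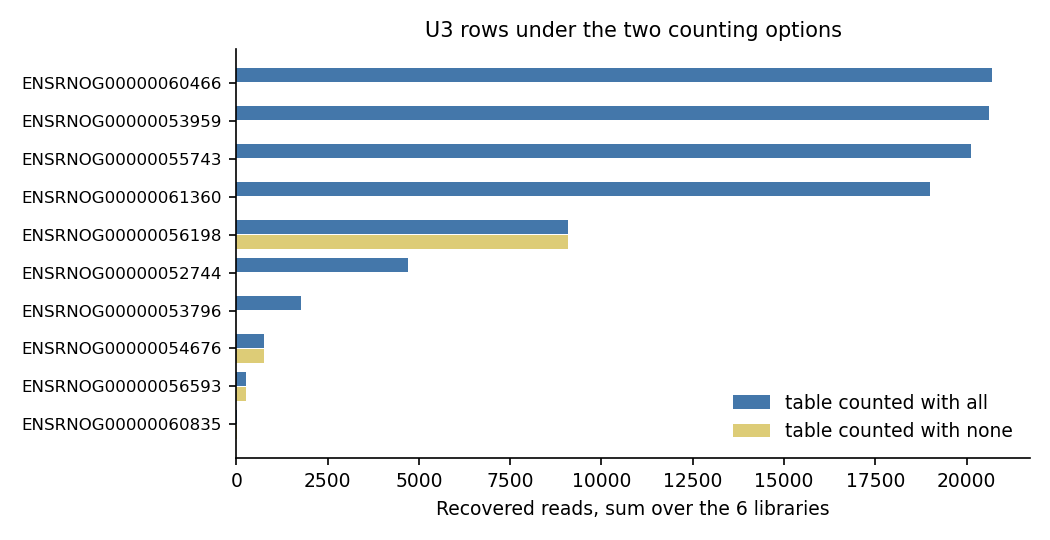
Recovered reads summed over the 6 libraries for each of the 10 U3 rows, counted with reads shared between genes added to each (blue) or left out (yellow). Rows listed at 0 in the second table (6 of 10) have a blue bar alone, and the other 4 have the same reads in both.

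The remaining 4 U3 rows did not differ in reads between the tables, and neither did the 5 U8 and U14 rows that had any. Over these 4 rows U3 gave 1313, 1505 and 1522 normalized reads in Control lines 5-9, 2 and 16, and 1520.4, 1677 and 2012 in PWS lines 3, 19-1 and 19-4. The groups overlapped by a small margin, PWS line 3 lying just under Control line 16. Means were 1447 ± 116 and 1736 ± 251 (SD, n = 3 each), a log2 difference of 0.26 (limma-trend, adjusted p = 0.886). In the table that leaves shared reads out, the U3 total is made of the same reads of these 4 rows, with the size factors of that table. Its difference of 0.26 there (limma-trend, adjusted p = 0.883) is therefore not a second test. Most of these reads lay in ENSRNOG00000056198, with 1285 ± 100.4 normalized reads in controls against 1569 ± 235.9 in the PWS group (SD, n = 3 each). The U3 direction and the absence of a call were the same on the full total and on these 4 rows, which are part of it.

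Row by row, none of the 14 tested member rows was called at an adjusted p under 0.1 by limma-trend, where 1.28% of all 4292 rows tested were called (55 rows, all lower in PWS lines). None was called by edgeR, DESeq2 or limma-voom on the recovered reads, and none had an unadjusted limma p under 0.05, against 5.96% of all rows (2.17% higher and 3.80% lower). The smallest adjusted p of a member was 0.876, and over all alternatives it lay between 0.768 and 1.000. The mean was higher in PWS lines for 10 of the 14 rows, beside 50.3% of all rows, and the median log2 difference was 0.13 beside 0.0048 over all rows tested. The count was 8 of 14 without Control line 2, and in the table that leaves shared reads out, where 8 member rows could be tested, it was 4 of 8.

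Of the 9 tested U3 rows, 8 had a higher mean in PWS lines, with a median log2 difference of 0.19. The 4 most abundant, with means between 2915 and 3236 normalized reads, were ENSRNOG00000060466, ENSRNOG00000053959, ENSRNOG00000055743 and ENSRNOG00000061360, with log2 differences of 0.092, 0.11, 0.10 and 0.30. The differences were 0.28 for ENSRNOG00000056198, 0.19 for ENSRNOG00000052744, 0.38 for ENSRNOG00000053796, −0.0074 for ENSRNOG00000054676 and 0.25 for ENSRNOG00000056593. Single libraries moved most of these values by over 1.5 times. Without PWS line 19-4 the difference was 0.0048 for ENSRNOG00000060466, 0.036 for ENSRNOG00000053959, 0.044 for ENSRNOG00000055743, 0.0028 for ENSRNOG00000052744 and 0.16 for ENSRNOG00000056198. Without Control line 5-9 it was 0.036, 0.044 and 0.057 for the first 3 of these, and without PWS line 3 it was 0.15 for ENSRNOG00000060466 and 0.38 for ENSRNOG00000052744. For ENSRNOG00000056593 it was 0.11 without Control line 2, while for ENSRNOG00000061360 it stayed between 0.23 and 0.38 whichever line was left out. The row below the minimum, ENSRNOG00000060835, had between 1 and 7 reads per library. The copies of U3 are alike in sequence and the way the aligner placed a read that fitted several copies is not given in the sources used here, so single rows are uncertain and are not independent of each other.

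Of the 4 U14 rows, 3 had a lower mean in PWS lines, with a median log2 difference of −0.29. ENSRNOG00000061656 (mean of 168 normalized reads) differed by −0.25, ENSRNOG00000054774 (mean of 132) by −0.33, ENSRNOG00000060267 (mean of 31.7) by −0.35 and ENSRNOG00000057762 (mean of 31.0) by 0.15. The 2 more abundant rows rested on single libraries. ENSRNOG00000061656 differed by −0.011 without PWS line 19-4, −0.57 without PWS line 3, −0.38 without Control line 2 and −0.15 without Control line 16. ENSRNOG00000054774 differed by −0.0013, −0.66, −0.55 and −0.14 without the same lines. ENSRNOG00000060267 differed by 0.19 without PWS line 19-4, −0.71 without PWS line 3 and −0.52 without PWS line 19-1. ENSRNOG00000057762 differed by −0.14 without PWS line 3, −0.14 without Control line 2, 0.43 without PWS line 19-1, 0.32 without Control line 16 and 0.28 without Control line 5-9. With the 2 subclones averaged, the 4 rows in the order given first differed by −0.086, −0.15, −0.081 and 0.31. On the recovered reads ENSRNOG00000061656 differed by −0.15 with edgeR, and ENSRNOG00000060267 by −0.094 with edgeR, −0.13 with DESeq2 and −0.22 with limma-voom. In ENSRNOG00000060267 the 2 subclones stood apart, with 33.6 normalized reads in line 19-1 and 11.9 in line 19-4, the latter resting on 9 reads. PWS line 3 had 43.9 and the controls lay between 31.5 and 35.3.

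**Figure D4:**
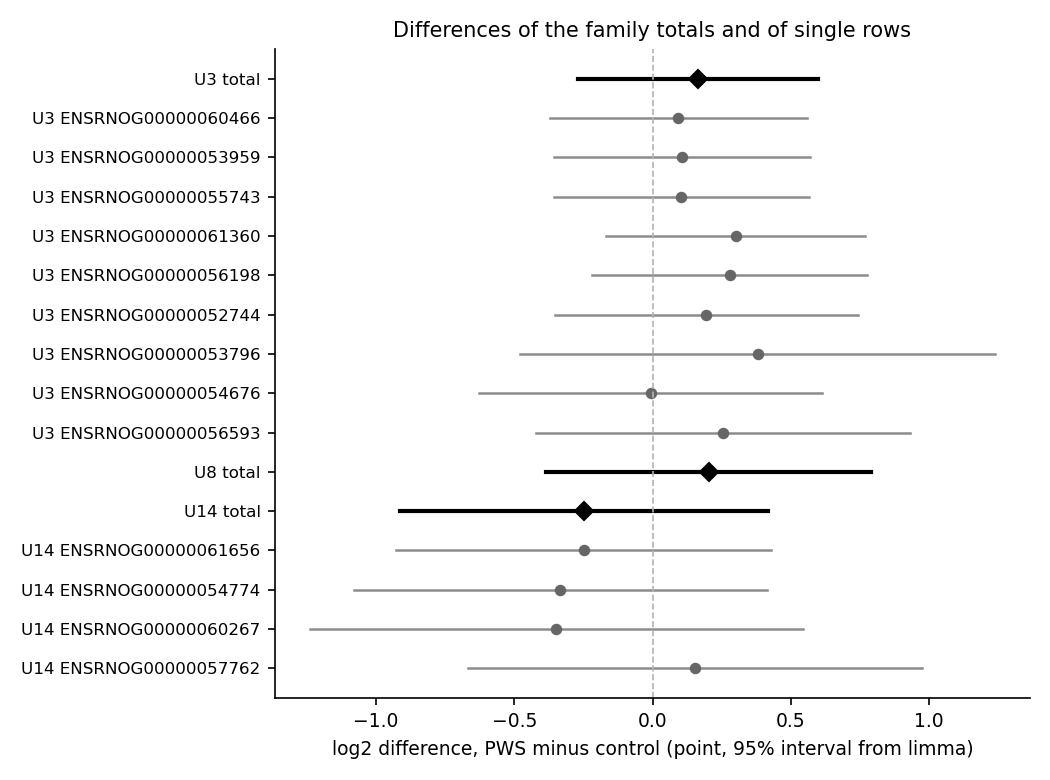
Log2 difference, PWS minus control, with its 95% interval from limma-trend, for the 3 family totals (black diamonds) and the single U3 and U14 rows tested (grey circles). U8 was tested as 1 row, which is its total. Every interval includes 0, U3 rows lie at or above −0.0074 and 3 of 4 U14 rows lie below 0.

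In 3 of the 14 rows, all of them U3, the 3 PWS lines lay above the 3 controls, beside 4.87% of all rows tested. In 0 of the 14 they all lay below, beside 6.29% of all rows (11.2% for either direction). ENSRNOG00000061360 gave 2355, 2717 and 2766 normalized reads in Control lines 5-9, 2 and 16 and 3324, 2889.9 and 3439.5 in PWS lines 3, 19-1 and 19-4 (adjusted p = 0.876). ENSRNOG00000056198, a row with reads of its own, gave 1172, 1320.4 and 1363 in controls and 1371, 1504 and 1829.9 in PWS lines (adjusted p = 0.887). ENSRNOG00000056593 gave 38.4, 28.8 and 40.1 in controls and 40.4, 46.2 and 40.9 in PWS lines (adjusted p = 0.915). In each of the 3 rows the gap between the groups was smaller than the range of the controls.

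Within the U3 reads, the groups overlapped in the shares of all but the 4 most abundant of the 10 rows. Of these 4 shares, 1 was higher and 3 were lower in the PWS lines, without overlap. These shares sum with the others to the whole and so are not independent, and they were chosen after their values were seen. ENSRNOG00000061360, the higher one, took 18.0%, 18.7% and 18.5% of U3 reads in Control lines 5-9, 2 and 16 and 21.7%, 19.5% and 19.5% in PWS lines 3, 19-1 and 19-4. The means were 18.4% ± 0.356 and 20.2% ± 1.24 (SD, n = 3 each, exact two-sided permutation p = 0.1, the smallest possible). The difference of 1.82 percentage points was 1.11 without PWS line 3. The 95% Wilson interval of the highest control, line 2, ran from 18.0% to 19.4%, and that of PWS line 19-1 from 18.9% to 20.2%, so that the intervals of these 2 lines overlapped. ENSRNOG00000060466 took 21.6% to 22.6% in controls and 20.1% to 21.4% in PWS lines. ENSRNOG00000053959 took 21.6% to 22.0% and 20.7% to 21.0%, and ENSRNOG00000055743 took 20.8% to 21.5% and 19.9% to 20.5%. In each of the 3 the gap between the groups was under 1 percentage point, and these shares were not tested.

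The share of ENSRNOG00000053796 varied widely among clones of both genotypes, and the groups overlapped. It took 1.57%, 0.701% and 2.27% of U3 reads in Control lines 5-9, 2 and 16, and 2.73%, 1.19% and 1.21% in PWS lines 3, 19-1 and 19-4. In normalized reads this row ran from 102 in Control line 2 to 419 in PWS line 3, again the deepest library, and its log2 difference of 0.38 was −0.072 without Control line 2, 0.011 without PWS line 3, 0.79 without Control line 16 and 0.63 without PWS line 19-1. The U3 total without this row differed by 0.16.

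**Figure D5:**
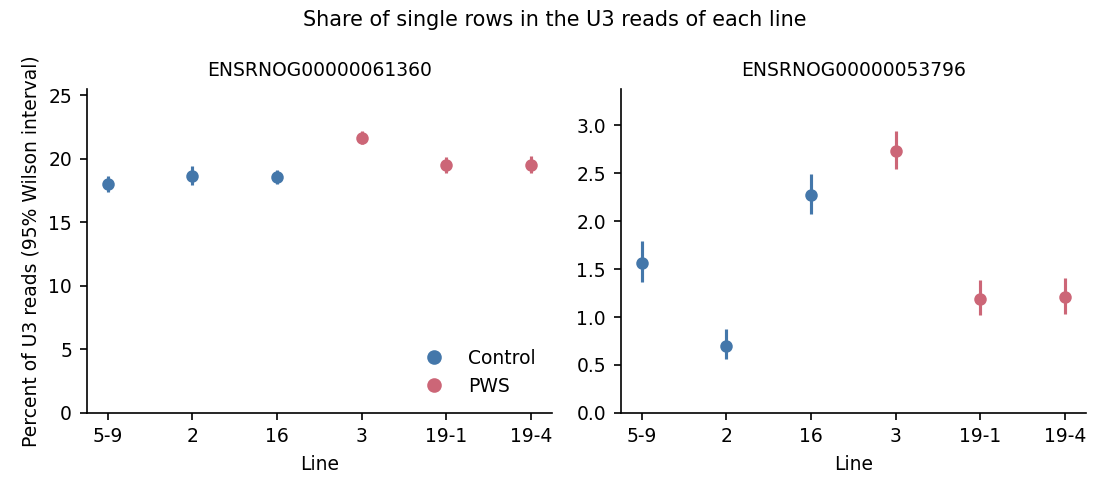
Share of each line's U3 reads in rows ENSRNOG00000061360 (left) and ENSRNOG00000053796 (right), in percent with 95% Wilson intervals (counting error only), blue for Control and red for PWS lines. On the left PWS line 3 stands highest at 21.7%, and on the right the shares run from 0.701% in Control line 2 to 2.73% in PWS line 3 with overlapping groups.

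As a share of all snoRNA reads, the 16 rows took 6.34%, 6.72% and 6.87% in Control lines 5-9, 2 and 16 and 7.74%, 8.03% and 7.07% in PWS lines 3, 19-1 and 19-4. The groups did not overlap, with means of 6.64% ± 0.271 and 7.62% ± 0.492 (SD, n = 3 each, exact two-sided permutation p = 0.1, the smallest possible). The denominator held the snoRNAs of the deleted domain, which the PWS lines lack. Without those the control shares were 6.62%, 6.90% and 7.13%, the PWS shares did not move at this precision, and the groups overlapped (difference of 0.729 percentage points, exact permutation p = 0.2). They also overlapped as a share of C/D snoRNA reads alone, at 7.47% ± 0.225 and 8.45% ± 0.693 (SD, n = 3 each, exact permutation p = 0.2). With the domain rows in the denominator, U3 took 6.25% ± 0.274 in controls and 7.19% ± 0.408 in PWS lines, whereas U8 (0.228% and 0.269%) and U14 (0.170% and 0.157%) took less.

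Other RNAs of the same pathway were compared as lists, none of which had a called row. Over all rows tested, those of the deleted domain included, 1.28% were called, and 5.96% had an unadjusted limma p under 0.05 (2.17% higher and 3.80% lower). Of the other box C/D snoRNAs outside the PWS domain, 90 of 99 rows were tested and 0 were called by limma-trend, edgeR, DESeq2 or limma-voom, with 1 higher and 2 lower at an unadjusted limma p under 0.05 and a median log2 difference of 0.027. The PWS lines all lay above the controls in 4 of the 90 and below in 3, beside 4.87% and 6.29% of all rows. The 2 most abundant were Snord110, at 16219 ± 1272 normalized reads in controls against 15822 ± 4716 in the PWS group, and Snord57, at 15570.0 ± 1074 against 14414 ± 1588 (SD, n = 3 each). Of 40 rows of other RNAs known for pre-rRNA processing, 16 were tested and 0 were called by these tools or had an unadjusted limma p under 0.05, with a median of −0.16. The most abundant was RNase_MRP, the RNA of an enzyme that cleaves the internal spacer, with a control mean of 9959 ± 1786.9 and a PWS mean of 9903 ± 1689 normalized reads (SD, n = 3 each). The next row was SNORD22 ENSRNOG00000056397, with 475 ± 59.2 against 379 ± 44.9. The 5 Snord22 rows, which are also box C/D snoRNAs, summed to 1058, 1035 and 927 normalized reads in Control lines 5-9, 2 and 16 and to 853, 807 and 751 in PWS lines 3, 19-1 and 19-4. All 3 PWS lines thus lay below the controls, yet the log2 difference of −0.32 did not pass the test (limma-trend, adjusted p = 0.890). The sums of the other 3 families of this list had overlapping groups and slightly higher PWS means. Snora73 summed to 396 ± 39.9 normalized reads in controls against 412 ± 30.6 in the PWS group, Snora62 to 338 ± 58.3 against 394 ± 59.6 and Snora63 to 75.0 ± 10.7 against 78.2 ± 27.7 (SD, n = 3 each), with log2 differences of 0.062, 0.22 and 0.015.

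Among rRNA rows, 89 of 329 were tested and 0 were called by the 4 tools, beside 1.28% of all rows, and 1 had an unadjusted limma p under 0.05, beside 5.96%. The mean was lower in PWS lines for 79 of the 89 and higher for 10, with a median log2 difference of −0.29. In 14 of the 89 all 3 PWS lines lay below the controls, beside 6.29% of all rows, and in 0 above, beside 4.87%. These rows are copies annotated to the same 2 kinds of RNA, 5S and 5.8S rRNA, so they are not independent. The 41 rows of 5.8S rRNA, one of the large subunit rRNAs, summed to 378442 ± 25814 normalized reads in controls against 304716 ± 45385 in the PWS group (SD, n = 3 each). The PWS lines, from 258209 in line 3 to 348889 in line 19-1, all lay below the lowest control at 349717. The log2 difference was −0.32 with a standard error of 0.20 (limma-trend, adjusted p = 0.864), and it was −0.21 without PWS line 3. The 2 most abundant rows, ENSRNOG00000051831 and ENSRNOG00000058725, differed by −0.32 and −0.33. The libraries hold short fragments and small RNAs, so these reads do not measure the amount of ribosomes.

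The mRNAs of the proteins of this pathway were read at low levels, the means of the 21 tested rows lying between 5.02 and 16.4 normalized reads. Of the box C/D particle proteins, 4 of 6 rows were tested and 0 were called by the 4 tools or had an unadjusted limma p under 0.05. Nolc1, a nucleolar chaperone of these particles, averaged 11.0 ± 4.12 normalized reads in controls against 16.4 ± 3.06 in the PWS group, and Nop56, a core protein, 10.9 ± 1.30 and 12.9 ± 6.12 (SD, n = 3 each). Of 34 rows of pre-rRNA processing proteins, 15 were tested and 0 were called by the 4 tools, beside 1.28% of all rows, with 1 at an unadjusted limma p under 0.05, beside 5.96%. That row was Pwp2, named after its values were seen, at 2.07 ± 2.78 normalized reads in controls against 7.97 ± 1.22 in the PWS group (SD, n = 3 each, adjusted p = 0.831 in limma-trend). The RNA helicase Ddx21 averaged 15.7 ± 2.92 and 17.2 ± 7.34 normalized reads, and Npm1, the nucleolar phosphoprotein, 12.4 ± 4.99 and 20.2 ± 4.73 (adjusted p = 0.855 in limma-trend). Both host genes of U14 were tested and 0 were called by these tools or had an unadjusted limma p under 0.05, with 11.0 ± 5.92 and 12.7 ± 5.68 normalized reads for Hspa8 and 6.14 ± 1.07 and 5.95 ± 1.77 for Rps13 (SD, n = 3 each).

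The rows whose pattern over the 6 libraries was most like that of each family were found among the 720 rows that averaged 50 or more normalized reads, by the root-mean-square (RMS) difference of centred log2 values. For U3 these were 3 of the rows that share its reads, AABR07030184.3, AABR07030184.1 and AABR07030184.4 (RMS 0.032, 0.036 and 0.051), and the nearest that share none were Dvl1 (0.062), Snord2 (0.063) and SNORD83 (0.072). For U8 they were 2 rows of SNORD15, ENSRNOG00000055569 (0.030) and ENSRNOG00000052293 (0.12), followed by Snord89 (0.12). For U14 they were Snord17 (0.13), Y_RNA ENSRNOG00000058936 (0.13) and Snord1b (0.13). The likeness is over 6 libraries, which also share their depth and size factors.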

How the data were processed

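Small RNA libraries of 3 Control and 3 PWS lines were made by the authors with a miRNA kit carrying unique molecular identifiers, with a wider size selection. Per the submitters' processing notes, UMI-tools 1.0.0, cutadapt 1.18, Bowtie2 2.3.4.2, HTSeq 0.11.2 and DESeq2 were used with build Rnor_6.0 (featureCounts is also named). The deposited values are a signal, gene counts divided by a size factor per library, in 2 tables that differ in the counting of shared reads. Every value was a whole multiple of 1 read (100% within 0.001). The authors' own fold changes and p-values in these tables were not used.

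Genotypes were compared by limma-trend (limma 3.58.1, R 4.3.3) on log2(normalized reads + 1), which understates changes of low rows, over rows with a mean of at least 5, without covariates, p-values being adjusted over all rows by Benjamini-Hochberg. Calls were made at 0.1, and family totals replaced their rows in a second fit. Shares were compared by exact permutation. Alternatives included edgeR 4.0.16 and DESeq2 1.42.0 on recovered reads. The fit was tested on simulated data. Poisson and Wilson intervals and the floor of 3 reads cover counting error only. The text names the family totals, all rows with a mean of at least 5, rows differing between the tables, the 3 most alike rows per family and the 2 most abundant of each list. Members and lists were chosen with earlier results of these data known. ENSRNOG00000061360 shares, family ratios, 5.8S and Snord22 sums and the Dvl1, Snord2 and SNORD83 rows were chosen after seeing values.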

Additional observations from a re-analysis of the deposited data

How the results depend on the processing

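No U3, U8 or U14 total and no member row passed the threshold under any alternative run (a pseudocount of 0.5 or 5, a minimum mean of 1, 20 or none, TMM, upper-quartile and C/D snoRNA scaling, edgeR, DESeq2, limma-voom, the second table, a threshold of 0.05, the replicate block, averaged subclones, each line left out, and the added depth covariate and 2 other U3 totals), and the count of genes called lay between 41 and 66 against 55. With lines left out in turn, the log2 difference ran from 0.091 to 0.22 for U3, from −0.0012 to 0.40 for U8 and from −0.57 to 0.024 for U14, and from −0.0012 to 0.40 for the U8 row ENSRNOG00000056054. It ran from −0.072 to 0.79 for ENSRNOG00000053796, from −0.14 to 0.16 for ENSRNOG00000054676, from −0.14 to 0.43 for ENSRNOG00000057762, from −0.71 to 0.19 for ENSRNOG00000060267 and from −0.14 to 0.13 for RNase_MRP. It kept its sign but moved by over 1.5 times for ENSRNOG00000052744 (0.0028 to 0.38), ENSRNOG00000053959 (0.036 to 0.16), ENSRNOG00000055743 (0.044 to 0.15), ENSRNOG00000060466 (0.0048 to 0.15), ENSRNOG00000056198 (0.16 to 0.37), ENSRNOG00000056593 (0.11 to 0.34), ENSRNOG00000054774 (−0.66 to −0.0013), ENSRNOG00000061656 (−0.57 to −0.011) and 5.8S rRNA (−0.42 to −0.21). The cause of these moves was not tested. Near 0 in the first place, ENSRNOG00000054676 turned positive with TMM (0.022), upper-quartile scaling (0.057), edgeR (0.0080) and limma-voom (0.019), as did RNase_MRP (0.023, 0.058, 0.033 and 0.029). Upper-quartile scaling gave 0.16 for ENSRNOG00000060466, 0.17 for ENSRNOG00000053959 and 0.17 for ENSRNOG00000055743, C/D snoRNA scaling gave 0.060 for ENSRNOG00000060466, and averaged subclones gave 0.11 for ENSRNOG00000052744. The members' share of snoRNA reads differed by 0.763 to 1.24 percentage points with lines left out and by 0.215 in the second table, where it averaged 1.29% in controls against 1.50% in the PWS group (exact permutation p = 0.2). For U13, with no row, no alternative could be run.

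Replicate numbers did not clearly pair the lines. Deviations of same-numbered lines correlated at 0.414, 0.218 and −0.057 over 1087 genes, and those of differently numbered lines between −0.551 and 0.303. With the number as a replicate block, 56 genes and 0 members were called, and the adjusted p was 0.901 for U3, 0.901 for U8 and 0.887 for U14.

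Low rows rest on few reads, as ENSRNOG00000060267 with 9 to 74 per library. The 3 clones per group left intervals that include log2 differences of 0.60 for U3, 0.79 for U8 and −0.91 for U14.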
